A study of Mus musculus with 9 samples.

Results

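The 7 genes described here, *Hmgcs1*, *Idi1*, *Fdps*, *Sqle*, *Lss*, *Cyp51* and *Dhcr7*, encode enzymes that build cholesterol. They were chosen by name, as the entries of the deposited table that carry one of these symbols. Each symbol matched 1 entry, so 7 of 22013 entries in all (15820 of them with a symbol) are members. The values come from RNA-seq of whole mouse lenses at embryonic day E16.5, in 9 libraries with pooled RNA of 8 lenses each. Control lenses were *Mafg*+/-:*Mafk*+/-, compound KO lenses were *Mafg*-/-:*Mafk*+/- and double KO lenses were *Mafg*-/-:*Mafk*-/-, with 3 libraries per genotype. Every embryo, controls included, thus carried at least 1 knockout allele of each gene, and no wild-type lenses were analysed here. The knockout alleles are germline, so every tissue lacked the same gene copies as the lens, and the mice were kept on an ICR background. MAFG and MAFK are small MAF proteins, basic leucine zipper factors without an activation domain of their own that bind DNA as homodimers or with partners such as NRF2 and BACH1.

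Cells make cholesterol from acetyl-CoA through the mevalonate pathway, in which isoprenoid units are joined into squalene, closed into lanosterol and then trimmed to cholesterol. When sterols in the endoplasmic reticulum are scarce, the escort protein SCAP carries the transcription factor SREBP2 to the Golgi apparatus, where it is cut and freed to switch on most genes of the pathway, and when sterols are abundant the INSIG proteins hold the complex back. Lens fiber cells have membranes exceptionally rich in cholesterol, and inherited defects of LSS or DHCR7 in people are associated with cataract. The comparison asks whether the transcripts of this pathway differ between lenses that lack MAFG, or both MAFG and MAFK, and lenses that retain 1 functional allele of each.

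SREBP2 acts at gene starts together with factors that bind CCAAT and GC boxes, so the 250 bases before the start of the canonical transcript of 6 of the 7 genes, all but *Fdps*, (GENCODE release M39, GRCm39) were searched on both strands. The motifs were a sterol response element (SRE, TCACNCCAC), the CCAAT box (CCAAT), the GC box (GGGCGG) and, for the small MAF partners, an antioxidant response element (ARE, TGACNNNGC). The 3 windows below are shown because they belong to genes whose double KO and control libraries did not overlap and hold at least 1 match to the SRE or the CCAAT box. Bases of these 2 motifs are in capitals and all other bases are in lower case, in the direction of transcription. They lie at chr13:120151732-120151981 (plus strand) for *Hmgcs1*, chr13:8935669-8935918 (plus) for *Idi1* and chr15:59186632-59186881 (plus) for *Sqle*.
Hmgcs1: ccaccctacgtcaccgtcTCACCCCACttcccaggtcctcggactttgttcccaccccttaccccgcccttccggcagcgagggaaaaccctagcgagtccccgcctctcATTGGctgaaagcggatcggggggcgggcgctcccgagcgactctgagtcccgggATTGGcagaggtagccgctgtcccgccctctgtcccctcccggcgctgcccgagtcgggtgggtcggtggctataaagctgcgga
Idi1: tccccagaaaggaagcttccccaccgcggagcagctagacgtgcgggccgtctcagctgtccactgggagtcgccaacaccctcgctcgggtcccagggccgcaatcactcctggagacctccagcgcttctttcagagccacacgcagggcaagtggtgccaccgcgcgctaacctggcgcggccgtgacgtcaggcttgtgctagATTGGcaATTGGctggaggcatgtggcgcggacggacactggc
Sqle: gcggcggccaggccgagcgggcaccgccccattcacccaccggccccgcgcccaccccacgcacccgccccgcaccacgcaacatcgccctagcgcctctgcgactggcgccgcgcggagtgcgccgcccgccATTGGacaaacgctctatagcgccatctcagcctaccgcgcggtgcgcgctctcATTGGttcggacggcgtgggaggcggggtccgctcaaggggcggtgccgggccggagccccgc
The SRE letters occurred in 1 of the 6 windows, that of *Hmgcs1*, beginning 232 bases before the start, and in 1.12% of the 21770 gene windows searched. The CCAAT letters occurred in 4 of 6 windows and in 36.5% of all windows. They stood as a pair in *Hmgcs1* (140 and 85 bases before the start), *Idi1* (43 and 36) and *Sqle* (117 and 63), and as 1 copy in *Lss* (13). The windows of *Cyp51* and *Dhcr7* held neither the SRE nor the CCAAT letters. Sterol response elements with letters other than this pattern were not searched for, so a window without a match may still hold one. The windows of *Dhcr7* (chr7:143383115-143383364) and *Idi1* lie inside their genes, where the canonical transcript starts, and earlier starts were not searched. The GC box occurred in 4 of 6 windows, those of *Hmgcs1*, *Sqle*, *Lss* and *Cyp51*, against 36.3% of all. The ARE occurred in none of the 6 and in 9.69% of all windows, and in 2 of the windows of 15 other enzymes of the pathway. These matches describe the letters of the windows only.

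Values are given as normalized CPM (counts per library total, which the authors scaled with 1 composition factor for each library) to 1 decimal. Libraries summed to between 728036 and 1131184, totals that follow from the scaling, so the depth behind a value is unknown and no counting interval is given. The targeted genes followed the labels. *Mafg* was at 112.9 to 134.5 in the control libraries, at 10.1 to 24.1 in the compound KO and at 21.2 to 26.2 in the double KO. *Mafk* was at 5.2 to 6.3 in the control, at 4.3 to 5.3 in the compound KO and at 0.0 to 0.6 in the double KO. Fiber cell markers summed to between 40587 and 131847 over the 9 libraries, with the lowest sum in compound KO replicate 1. That library stood apart, with 2890 for 12 mesenchyme markers against at most 512.7 in the other 8, and 744.7 for 7 pigment epithelium markers against at most 59.4, so the compound KO results of the 7 genes are also given without it, and those of other genes and lists where leaving it out moved the value by over 1.5 times.

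In control lenses, all 7 genes were expressed. To compare levels between genes, each value was divided by the length of the canonical transcript, which ranged from 1306 bases (*Fdps*) to 6381 bases (*Lss*). Per kilobase, *Fdps*, which makes farnesyl diphosphate, was at 43.1 ± 3.62 normalized CPM (SD, n = 3). *Sqle*, the squalene epoxidase, followed at 26.4 ± 1.31, then *Cyp51*, the lanosterol demethylase, at 22.4 ± 0.930. *Idi1*, the isopentenyl diphosphate isomerase, was at 20.0 ± 1.88, and *Hmgcs1*, the cytosolic HMG-CoA synthase at the entry of the pathway, at 19.8 ± 5.26. The lowest were *Lss*, the cyclase that forms lanosterol, at 10.7 ± 0.824 and *Dhcr7*, which reduces a ring double bond late in the pathway, at 9.20 ± 3.08. The control libraries of *Fdps* lay above those of *Sqle*, and those of *Sqle* above those of *Cyp51* and *Idi1*. The range of *Hmgcs1* overlapped those of *Sqle*, *Cyp51* and *Idi1*, and the ranges of *Cyp51* and *Idi1* overlapped each other, as did those of *Lss* and *Dhcr7*. Per-kilobase levels assume that the canonical transcript is the one measured.

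Between double KO and control lenses, 5 of the 7 genes had all 3 double KO libraries above all 3 control libraries, *Hmgcs1*, *Idi1*, *Fdps*, *Sqle* and *Cyp51*. The same held for 7.78% of the 14122 entries tested. The differences were below 1.5-fold except for *Hmgcs1*. None of the 7 was called, that is, passed an adjusted p threshold of 0.05 together with a 1.5-fold change, as 0.361% of entries did. *Hmgcs1* alone passed an unadjusted threshold of 0.05 with 1.5-fold, as 1.59% of entries did upward. Without the fold threshold, all 5 genes passed the unadjusted p, against 4.79% of entries upward. The median log2 fold change was 0.24 over the 7 genes and 0.01 over all entries tested. Bulk values cannot tell fewer cells of a type from less RNA per cell.

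**Figure D1:**
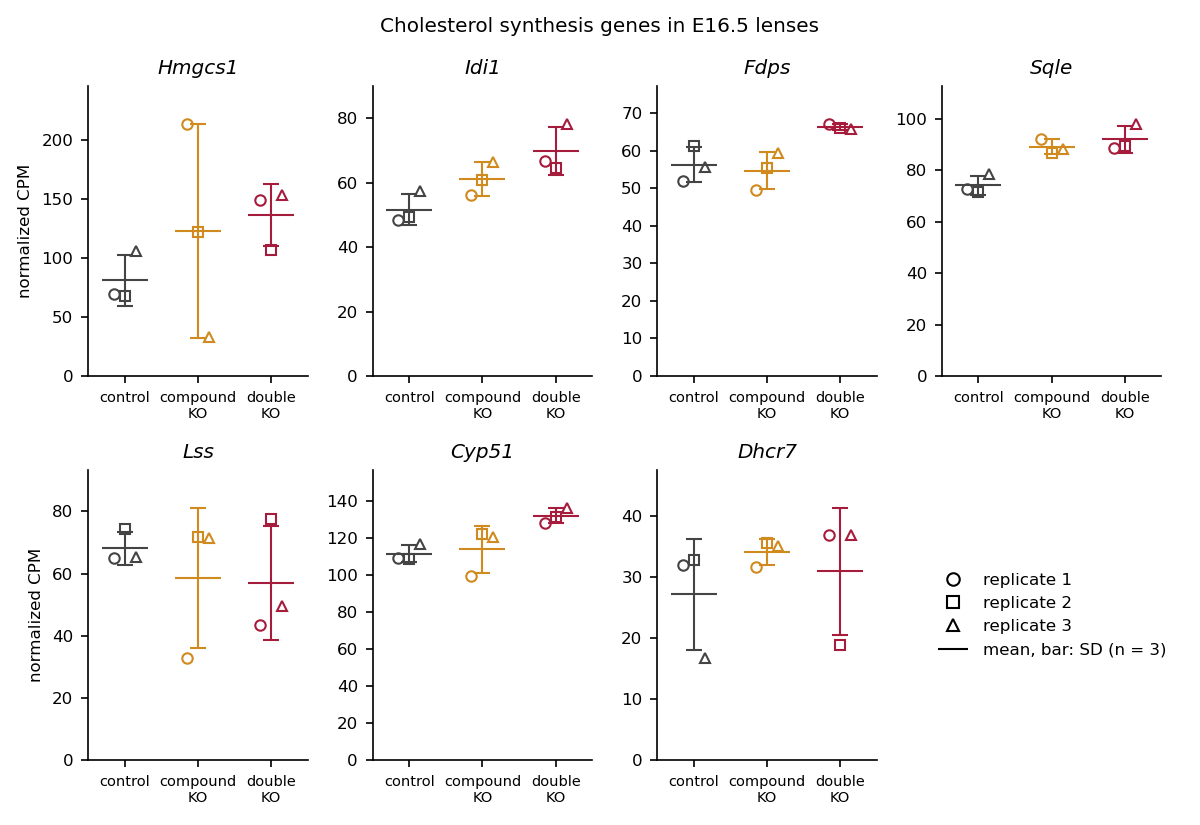
Normalized CPM (y axis, from 0) of each of the 7 genes in the 3 control, 3 compound KO and 3 double KO libraries, with symbols for replicates and lines for the mean and SD (n = 3). The double KO libraries lie above the control libraries for *Hmgcs1*, *Idi1*, *Fdps*, *Sqle* and *Cyp51*, and the groups overlap for *Lss* and *Dhcr7*.

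*Hmgcs1* (chr13:120151915-120170470, plus strand), which joins acetyl-CoA and acetoacetyl-CoA, was at 69.6, 67.8 and 106.0 normalized CPM in control replicates 1 to 3 and at 148.8, 106.3 and 153.2 in the double KO. The highest control and the lowest double KO library were only 106.0 and 106.3, so the groups barely separated. The mean was 81.1 ± 21.6 (SD, n = 3) in the control and 136.1 ± 25.9 in the double KO. The log2 fold change of *Hmgcs1* was 0.75 ± 0.23 (SE), or 1.68-fold, with an adjusted p of 0.372. Its pass at the unadjusted p with 1.5-fold was lost on leaving out control replicate 1, control replicate 2, double KO replicate 1 or double KO replicate 3, with log2 fold changes of 0.64 to 0.96 over the 6 fits that each left out 1 library.

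The isoprenoid steps behaved more evenly. *Idi1* (chr13:8935537-8942487, plus strand), which interconverts the C5 isoprenoid units, was at 48.4, 49.4 and 57.3 in the control and at 66.7, 64.6 and 78.3 in the double KO. Its log2 fold change was 0.43 ± 0.10 (SE), with an adjusted p of 0.273. *Fdps* (chr3:89000888-89019213, minus strand), whose product feeds both sterols and protein prenylation, was at 51.9, 61.3 and 55.7 in the control. Its double KO libraries were at 67.2, 66.0 and 65.8, a spread of 1.14% of the mean (SD) against 8.40% in the control. For *Fdps* the log2 fold change was 0.24 ± 0.07 (SE), with an adjusted p of 0.364. The annotation lists 5 pseudogenes named after *Idi1* and 0 named after the other members, and pseudogenes under other names were not searched for. How reads shared with pseudogenes were assigned is not given in the sources used here. *Hmgcs1*, *Sqle* and *Cyp51* overlap a gene on the opposite strand at one end (*Nim1k*, *Washc5* and *Akap9*), and whether the counting used the strand of these libraries is likewise not given.

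Of the genes from squalene onward, *Sqle* (chr15:59186869-59203043, plus strand) was at 72.7, 71.5 and 78.4 in the control and at 88.8, 89.3 and 98.1 in the double KO. Its log2 fold change was 0.31 ± 0.06 (SE), with an adjusted p of 0.215. *Cyp51* (chr5:4123416-4154751, minus strand) was at 108.9, 108.7 and 116.8 in the control and at 128.2, 131.3 and 136.2 in the double KO. Its log2 fold change was 0.24 ± 0.05 (SE), with the same adjusted p of 0.215. Both genes had their groups apart by more than the spread within either, although their log2 fold changes correspond to 1.24-fold and 1.18-fold. The 95% intervals of the log2 fold change ran from 0.15 to 0.46 for *Sqle* and from 0.12 to 0.37 for *Cyp51*.

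*Lss* and *Dhcr7* did not follow. *Lss* (chr10:76367298-76392976, plus strand) was at 64.9, 74.2 and 65.3 in the control and at 43.3, 77.7 and 49.7 in the double KO, where replicate 2 lay above every control library and the other 2 below. Its log2 fold change of -0.30 ± 0.22 (SE) had an adjusted p of 0.735 and a 95% interval from -0.84 to 0.25. *Dhcr7* (chr7:143376740-143402149, plus strand) was at 32.1, 32.8 and 16.7 in the control and at 37.0, 18.9 and 37.0 in the double KO. Each group thus held 1 library near 17 to 19 (control replicate 3 at 16.7 and double KO replicate 2 at 18.9) and 2 libraries at 32.1 or above. For *Dhcr7* the log2 fold change was 0.18 ± 0.37 (SE), with an adjusted p of 0.921, and was -0.13 without control replicate 3. The table is at the level of transcripts, and its 6193 entries without a symbol, which held 25.0% to 35.5% of a library's total, cannot be assigned to a gene here. Whether reads of *Lss*, *Dhcr7* or any other gene described here, such as *Hmgcs1* or *Msmo1*, fall in such entries was not tested.

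Some marker sums did not overlap between double KO and control lenses. Those of fiber cells, mesenchyme, neural retina, pigment epithelium, endothelium, macrophages, and surface and corneal epithelium overlapped. Within the fiber cell list, 2 of 14 markers lay below the control in every double KO library and 0 above it. *Bfsp1* was at 4519 to 5520 in the control and at 2604 to 3267 in the double KO. *Dnase2b* was at 68.6 to 78.8 in the control and at 50.0 to 67.8 in the double KO. Of all entries tested, 7.78% had every double KO library above the control, and 1135 of 14122 had every one below it. Erythroid markers (8 of 10 in the table, 7 of them without overlap above the control) summed to between 1171 and 1640 in the control and between 2340 and 3879 in the double KO. Skeletal muscle markers (10 of 10, all 10 above the control) summed to 3.3 to 5.9 in the control, where *Ckm*, *Myh8*, *Myod1* and *Tnnt1* were each at 0 in at least 1 library, and to 30.5 to 97.6 in the double KO. Lens epithelium markers (8 of 8, 2 of them below the control) summed to between 638.3 and 690.7 in the control and between 583.8 and 621.5 in the double KO. The 2 were *Pdpn* and *Cdh1*, which had the largest difference of the list. *Cdh1* was at 228.2 to 239.2 in the control and at 167.4 to 185.5 in the double KO. With overlap, *Foxe3*, *Cdh3* and *Mab21l1* ranged lower in the double KO, and *Pax6*, *Npnt* and *Krt5* ranged higher. The part of these cell types in the differences of the cholesterol synthesis genes was not tested.

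In compound KO lenses, compared with the same control libraries, 1 of the 7 genes, *Sqle*, had all libraries above the control, against 12.2% of the 14348 entries tested. None was called, and neither was any other entry (0.0%), while 766 entries passed the unadjusted threshold with 1.5-fold. *Sqle* was at 92.3, 86.8 and 88.5 in the compound KO, overlapping its double KO values. Its log2 fold change was 0.26 ± 0.07 (SE), with an adjusted p of 0.481, and 0.24 without compound KO replicate 1. *Idi1* was at 56.2, 60.8 and 66.6, so that only compound KO replicate 1 reached into the control range, with a log2 fold change of 0.24 ± 0.11 (SE) and 0.30 without that library. The median over the 7 genes was 0.24 on the log2 scale and over all entries 0.02. Without compound KO replicate 1 the median over the 7 genes was 0.12, and 4 of 7 (*Sqle*, *Idi1*, *Cyp51* and *Dhcr7*) had both remaining libraries above the control, against 16.1% of the 14029 symbols tested.

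*Fdps* and *Cyp51* overlapped the control in the compound KO. *Fdps* was at 49.5, 55.3 and 59.4 and *Cyp51* at 99.3, 122.1 and 120.4, with the lowest value of both in replicate 1. Their log2 fold changes were -0.04 ± 0.11 and 0.03 ± 0.10 (SE). Without replicate 1 they were 0.03 and 0.12, and scaling by library size alone, which moved the median of all entries from 0.02 to 0.24, gave 0.21 for *Fdps*. *Dhcr7* was at 31.7, 35.6 and 35.1, a tight group that overlapped a split control, with a log2 fold change of 0.38 ± 0.27 (SE) and 0.43 without replicate 1.

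*Hmgcs1* had its widest spread in the compound KO, at 213.3, 121.7 and 32.9 in replicates 1 to 3. These libraries enclosed the whole control range and the whole double KO range, with an SD of 73.6% of the mean. The log2 fold change of *Hmgcs1* against the control was 0.26 ± 0.68 (SE), with a 95% interval from -1.44 to 1.95. It was -0.32 without replicate 1 and 1.01 without replicate 3, in which case *Hmgcs1* passed the unadjusted threshold with 1.5-fold. *Lss* was at 32.7, 71.8 and 71.5, with replicate 1 as the low library, and its log2 fold change of -0.30 ± 0.32 (SE) became 0.07 without it. Erythroid markers summed to between 1426 and 2839 and muscle markers to between 23.9 and 414.7 in the compound KO, in both cases overlapping the double KO range.

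**Figure D2:**
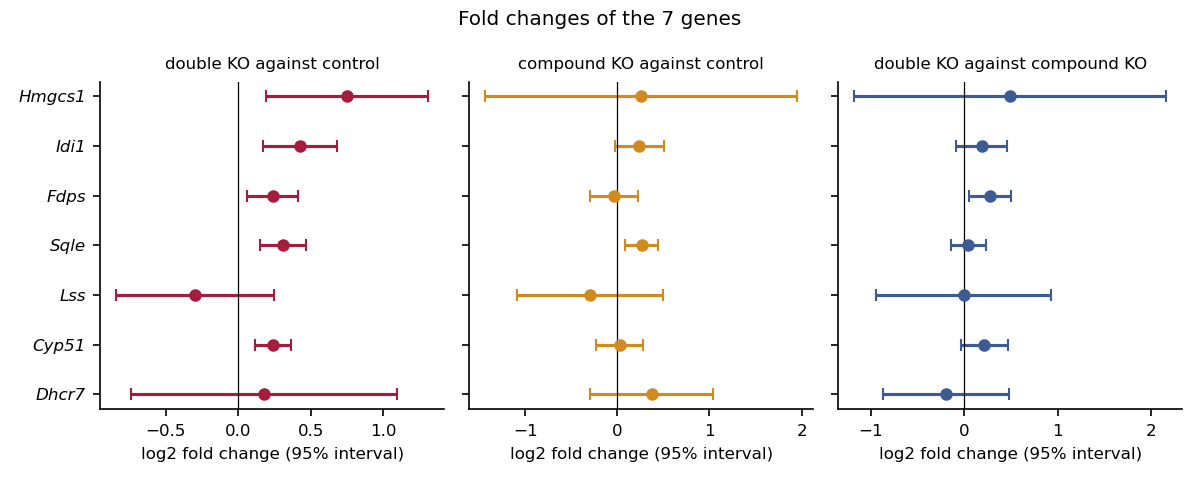
Log2 fold change (x axis, on normalized CPM plus 1, with 95% intervals from limma) of the 7 genes in the 3 comparisons of 3 against 3 libraries. In double KO against control, 5 intervals lie above 0, and the intervals of *Lss* and *Dhcr7* span 0. In the compound KO the interval of *Hmgcs1* runs from -1.44 to 1.95.

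Double KO and compound KO lenses differ by the remaining *Mafk* allele. Here *Fdps* and *Cyp51* had all double KO libraries above the compound KO libraries, 2 of 7 genes against 8.17% of the 14402 entries tested. None of the 7 was called, and 0.0139% of entries were. The log2 fold change of *Fdps* was 0.28 ± 0.09 (SE), with an adjusted p of 0.665, and that of *Cyp51* was 0.22 ± 0.10. Without compound KO replicate 1, which held the lowest value of both genes, these were 0.21 and 0.12, and 3 of 7 genes (*Fdps*, *Cyp51* and *Sqle*) had the double KO above both remaining libraries, against 11.8% of 14099 symbols. *Sqle* differed by 0.04 ± 0.08 (SE) between the knockouts, with a 95% interval from -0.14 to 0.23, and *Idi1* by 0.19 ± 0.11, which were 0.07 and 0.13 without that library. *Hmgcs1*, at 0.49 ± 0.68 (SE), and *Lss*, at -0.003 ± 0.38, had intervals from -1.18 to 2.16 and from -0.94 to 0.93, which include both a gain and a loss of 1.5-fold. Without compound KO replicate 1 they were at 1.07 and -0.37. *Dhcr7* was at -0.20 ± 0.27, or -0.25 without compound KO replicate 1, and turned to 0.11 without double KO replicate 2. Scaling by library size alone, under which the median of all entries was -0.17, moved *Sqle* to -0.14.

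Across the 9 libraries the 7 genes did not move as a unit. Pearson's r of log2 values ranged from -0.702 (*Hmgcs1* and *Lss*) to 0.873 (*Idi1* and *Sqle*) over the 21 pairs, with a median of 0.201, and 5 pairs were above 0.5. The 5 closest pairs lay among *Idi1*, *Fdps*, *Sqle* and *Cyp51*, which had r of 0.629 for *Idi1* and *Fdps*, 0.815 for *Idi1* and *Cyp51*, 0.826 for *Fdps* and *Cyp51*, and 0.502 for *Sqle* and *Cyp51*. *Dhcr7* had r between -0.326 and 0.201 with the other members. These are descriptions over 9 libraries that share genotype groups and scaling. Of the 8839 other entries with a symbol and a mean of at least 10 in a group, those most like the mean log2 value of the 7 genes were *Ube2l3* (r of 0.949), *Eif1b* (0.925), *Phb2* (0.880), an entry whose symbol is stored as the date 11-Sep (0.877), *Atpif1* (0.866), *Sec63* (0.862), *Wdr47* (0.850), *Reep1* (0.835), *Exosc2* (0.821) and *Ncapd2* (0.820). Among genes of sterol metabolism, *Fdft1* ranked 66 with an r of 0.724 and *Insig1* ranked 67 with 0.718.

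Another 15 enzymes and cofactors of the pathway were examined, and all were tested. In double KO lenses 12 of 15 had a positive log2 fold change, with a median of 0.13. Of the 15, 6 had all double KO libraries above the control (7.78% of all entries), 3 of these passed the unadjusted threshold of 0.05 (4.79% upward), and none was called (0.361%). Scaled by library size alone, 12 of 15 again lay above the median of all entries. *Fdft1*, the squalene synthase, was at 86.3, 99.4 and 90.5 in the control and at 108.3, 107.1 and 113.3 in the double KO, a log2 fold change of 0.25 ± 0.06 (SE) with an adjusted p of 0.303.

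The remaining enzymes without overlap in the double KO were *Acat2* (log2 fold change 0.24 ± 0.05, SE), *Lbr* (0.22 ± 0.08), *Erg28* (0.14 ± 0.07), *Sc5d* (0.20 ± 0.08) and *Msmo1*. *Msmo1*, a sterol methyl oxidase that acts after CYP51, was at 3.3, 33.1 and 23.8 in the control and at 44.4, 50.9 and 55.2 in the double KO. Its log2 fold change of 1.73 ± 0.79 (SE) rested on control replicate 1, and over the fits that each left out 1 library it ran from 0.81 to 2.30. Against the compound KO, at 23.3, 41.9 and 28.0, *Msmo1* differed by 0.71 ± 0.23, with an adjusted p of 0.665. Enzymes with no such separation in the double KO included *Mvk* (0.04 ± 0.14), *Pmvk* (0.04 ± 0.06), *Mvd* (0.13 ± 0.10), *Tm7sf2* (0.10 ± 0.10), *Nsdhl* (0.12 ± 0.07) and *Hsd17b7* (0.28 ± 0.16). *Ebp* (-0.08 ± 0.10), *Cyb5r3* (-0.06 ± 0.07) and *Por* (-0.04 ± 0.07) had negative values.

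**Figure D3:**
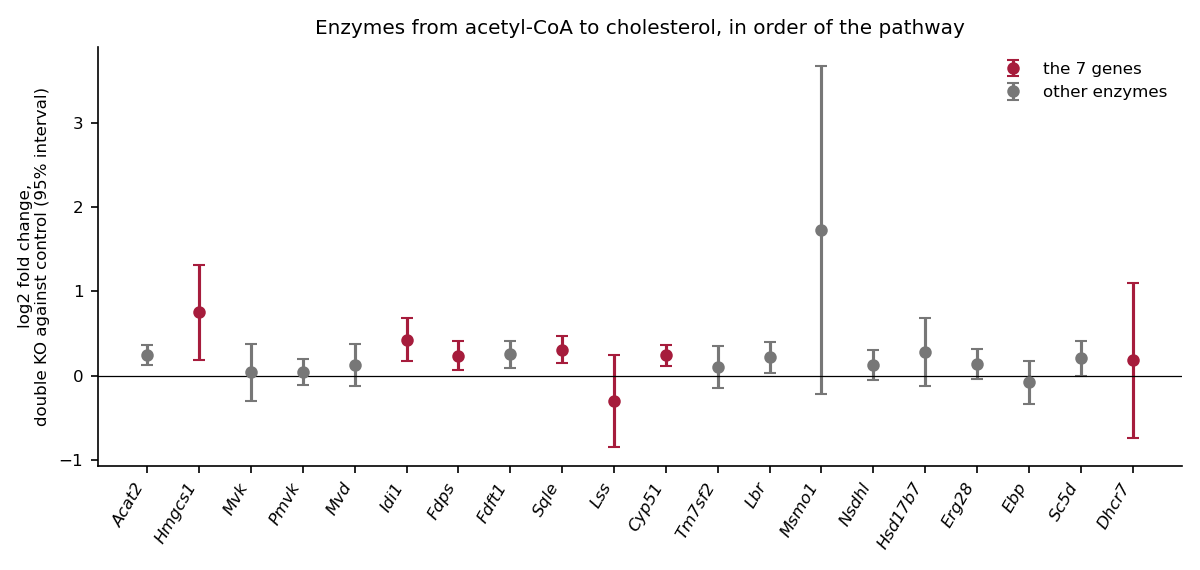
Log2 fold change in the double KO relative to the control (y axis, with 95% intervals from limma, 3 against 3 libraries) of 20 enzymes in the order of the pathway from acetyl-CoA, with the 7 genes in red and other enzymes in grey. *Hmgcs1* (0.75) and *Msmo1* (1.73) are the highest points, *Lss* (-0.30) and *Ebp* (-0.08) are below 0, and *Msmo1* has the widest interval.

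In the compound KO, 10 of the 15 enzymes were positive with a median of 0.06, or 0.16 without replicate 1. All libraries lay above the control for 4 of 15 (*Acat2*, *Mvk*, *Lbr* and *Erg28*), against 12.2% of all entries. None of the 15 passed the unadjusted threshold there. Without replicate 1, 6 of 15 had both remaining libraries above the control, against 16.1% of all symbols tested. In that limma fit *Acat2*, *Lbr* and *Por* passed the unadjusted threshold (p of 0.024, 0.032 and 0.039). Their adjusted p values were 0.370, 0.389 and 0.404. *Acat2* (69.4, 39.3 and 33.8 against 29.9 to 30.1 in the control) and *Lbr* (45.5, 24.8 and 23.7 against 20.2 to 21.3) had their highest value in replicate 1, and their log2 fold changes of 0.58 and 0.50 were 0.27 and 0.21 without it. Between the knockouts, 9 of 15 were positive with a median of 0.10, which was -0.00282 without compound KO replicate 1. Under library size scaling 4 of 15 were positive, with 9 of 15 above the median of all entries there and 9 of 15 above it in the main scaling. *Fdft1* (0.24 ± 0.10, and 0.15 without compound KO replicate 1) and *Msmo1* lay above the compound KO without overlap and *Ebp* (-0.37 ± 0.15) below it.

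Of 13 genes that sense, carry or take up sterols, 12 were tested. In double KO lenses 4 of 12 had all libraries above the control (7.78% of all entries), 2 of these passed the unadjusted threshold of 0.05 (4.79% upward), and none was called. *Insig1*, a sterol sensor that is itself an SREBP target, was at 51.9, 59.2 and 75.4 in the control, at 61.4, 82.8 and 99.4 in the compound KO and at 95.5, 100.5 and 132.8 in the double KO. Its compound KO libraries overlapped both other groups, with only replicate 1 in the control range. The log2 fold change of *Insig1* in compound KO against control was 0.37 ± 0.22 (SE), and 0.56 without replicate 1. Between the knockouts it was 0.44 ± 0.22, and 0.25 without compound KO replicate 1. Against the control, *Insig1* differed in the double KO by a log2 fold change of 0.81 ± 0.18 (SE), with an adjusted p of 0.251, and it passed the unadjusted threshold with 1.5-fold.

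The SREBP genes differed less. *Srebf2*, which encodes SREBP2, was at 130.8, 140.2 and 139.0 in the control and at 167.7, 142.4 and 156.4 in the double KO, a log2 fold change of 0.18 ± 0.07 (SE) with an adjusted p of 0.486. In the compound KO it was at 194.4, 149.5 and 155.7, also above the control, with a log2 fold change of 0.27 ± 0.12 that was 0.16 without replicate 1. *Srebf1* was at 36.2 to 53.6 in the control and at 37.5 to 62.0 in the double KO, 0.16 ± 0.22. *Scap* (-0.10 ± 0.13) and *Insig2* (0.07 ± 0.08) overlapped the control. *Stard4*, a sterol carrier, and *Mbtps1*, a protease that cuts SREBPs, were the other 2 genes without overlap in the double KO, at 0.30 ± 0.13 and 0.11 ± 0.05, and are named here after their values were seen. Over the 12 genes the median log2 fold change was 0.07 in the double KO and 0.06 in the compound KO (0.03 without replicate 1), where *Srebf2* and *Rnf139*, 2 of 12 against 12.2% of all entries, lay above the control without overlap. Between the knockouts it was 0.03 (0.05 without compound KO replicate 1), and *Mbtps1* lay above and *Rnf139* below the compound KO. The log2 fold change of *Mbtps1* there, 0.55 ± 0.34, rested on compound KO replicate 2 and was 0.15 without it. Both genes are named after their values were seen.

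**Figure D4:**
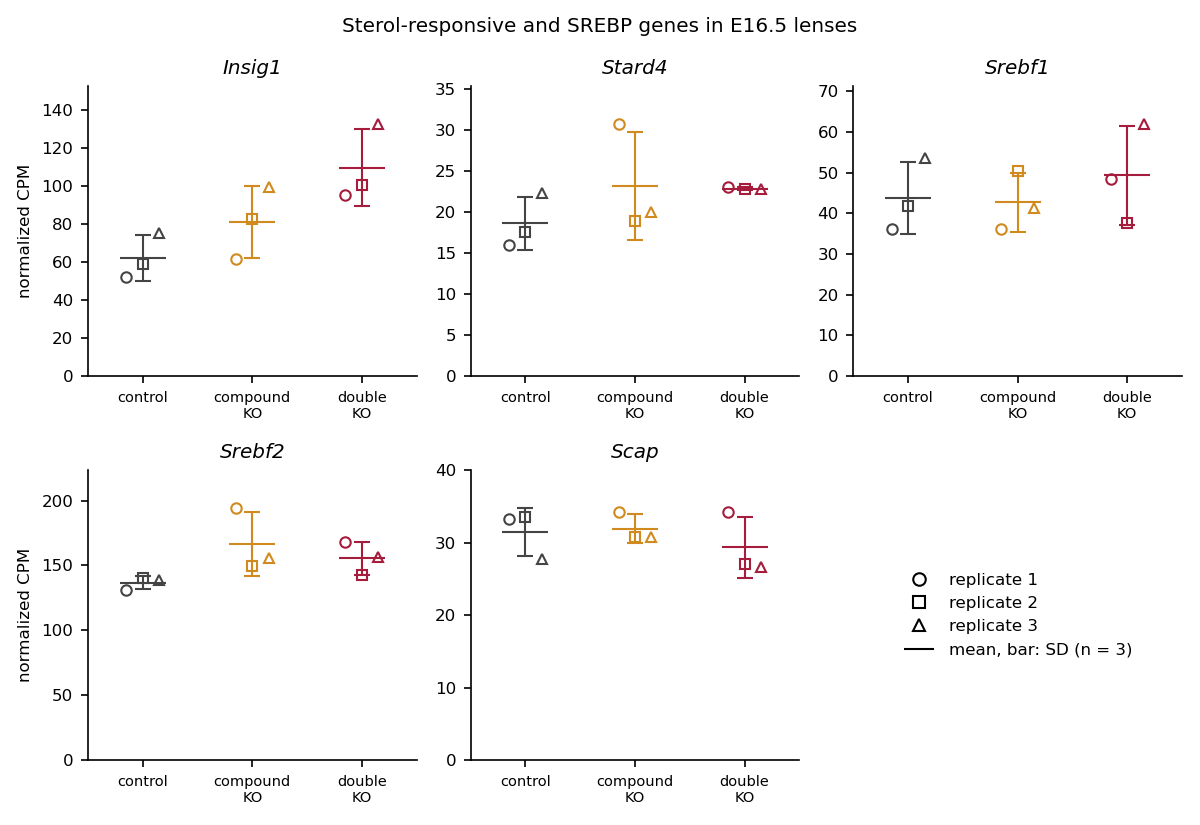
Normalized CPM (y axis, from 0) of *Insig1*, *Stard4*, *Srebf1*, *Srebf2* and *Scap* in the 9 libraries, with symbols for replicates and lines for the mean and SD (n = 3). The double KO libraries lie above the control libraries for *Insig1*, *Stard4* and *Srebf2*, with *Srebf1* and *Scap* overlapping, and *Insig1* reaches 132.8 in double KO replicate 3.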

How the data were processed

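Lens RNA of 9 libraries (8 lenses each) was sequenced by the authors as strand-specific paired reads. Per the labels and methods, reads were trimmed with Trimmomatic and aligned to mm39 with HISAT2, transcript-level counts were obtained with StringTie, and entries with low CPM were removed in edgeR (versions are not given in the sources used here). The deposited values are a signal, the authors' CPM divided by 1 composition factor for each library, to 1 decimal. Their totals have a geometric mean of 1000012, as such factors give. Depth is unknown.

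For each pair of groups, limma 3.58.1 (R 4.3.3) was fitted with an intensity trend to log2(value + 1) of all entries with a symbol and 2 or more of the 6 libraries at 1 or above, two-sided, with Benjamini-Hochberg adjustment over all entries tested. It was tested on simulated data. Differences are double KO or compound KO minus control, and double KO minus compound KO. Alternatives were library size and upper quartile scaling, a pseudocount of 0.1, no filter, 1 fit of all 9 libraries, a replicate block, summing of entries that share a symbol and each library left out. Of 75 genes in 6 pathway lists, 73 were in the table (1 under an older symbol), as were 90 of 98 markers in 10 lists.

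Genes named are *Mafg*, *Mafk*, the 7 members, the other pathway enzymes, 5 SREBP-related genes, up to 3 genes per comparison of every other list with the largest change at an unadjusted threshold of 0.05 and 1.5-fold, and the 10 entries most like the members. Some genes of the pathway and 1 promoter window are not reported here. The members and lists were chosen with earlier results of these data known. The libraries are separate pools by their labels, and p-values measure the spread between pools.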

Additional observations from a re-analysis of the deposited data

How the results depend on the processing

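None of the 7 genes was called in any comparison under any of the alternatives. Between double KO and control, 51 entries were called, against 21 in 1 fit of all 9 libraries, 10 with a replicate block and 22 to 47 with 1 library left out. *Hmgcs1* was the 1 member at an unadjusted p with 1.5-fold there, and the count was 0 in 1 fit of all 9 libraries and 0 to 1 with 1 library left out. Between compound KO and control, calls went from 0 to 2 in 1 fit of all 9 libraries and to 0 to 13 with 1 library left out (13 without compound KO replicate 1), entries at the unadjusted p from 766 to 382 to 1620, and members from 0 to 0 to 1. Between the knockouts, 2 calls became 1 with a pseudocount of 0.1, 5 in 1 fit of all 9 libraries, 0 with a replicate block and 1 to 6 with 1 library left out, and 440 entries at the unadjusted p became 744 with a replicate block and 253 to 1142. The causes were not tested.

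The sign turned for *Fdps* in compound KO against control (-0.04, against 0.21 under library size scaling), and between the knockouts for *Sqle* (0.04, against -0.14 under library size scaling) and *Lss* (-0.003, against 0.00816 under upper quartile scaling). *Mafk* in the compound KO (-0.21) was at 0.00802 under library size scaling. With 1 library left out, log2 fold changes that took both signs ran from -0.13 to 0.49 for *Dhcr7* in double KO against control. In compound KO against control they ran from -0.32 to 1.01 for *Hmgcs1*, -0.10 to 0.0286 for *Fdps*, -0.48 to 0.0743 for *Lss* and -0.0267 to 0.12 for *Cyp51*. Between the knockouts they ran from -0.26 to 1.07 for *Hmgcs1*, -0.00194 to 0.0691 for *Sqle*, -0.37 to 0.18 for *Lss* and -0.35 to 0.11 for *Dhcr7*.

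Same-numbered libraries correlated by -0.106 to 0.216 after removal of group means, so the numbers were not taken as pairs. In double KO against control, *Hmgcs1*, *Idi1*, *Fdps*, *Sqle* and *Cyp51* were positive under every alternative. With 3 pools a group and unknown depth, differences such as those of *Lss* and *Dhcr7* could not be resolved.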

Other observations

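Of 14 genes listed under SREBP1-driven fatty acid synthesis, all tested, *Me1*, the cytosolic malic enzyme that supplies NADPH, was the only one called in double KO lenses. Which factors act on *Me1* in these lenses was not tested. It was at 31.4, 32.5 and 33.4 normalized CPM in the control, at 28.8, 53.6 and 47.8 in the compound KO and at 54.0, 55.6 and 58.3 in the double KO. In compound KO against control its log2 fold change was 0.36 ± 0.24 (SE), and 0.63 without compound KO replicate 1. Between the knockouts it was 0.41 ± 0.23, and 0.14 without that library. The log2 fold change of *Me1* between double KO and control was 0.77 ± 0.05 (SE), with an adjusted p of 0.00934. That p was 0.0506 without control replicate 3, 0.494 in 1 fit of all 9 libraries and 0.129 with a replicate block, with the direction kept. The list's median was 0.06, 3 of 14 genes (*Me1*, *Fads1* and *Scd1*, the last 2 named after their values were seen) lay above the control without overlap, as 7.78% of all entries did, and 2 passed the unadjusted threshold upward, as 4.79% did. The list's median was 0.11 in the compound KO and 0.04 between the knockouts.

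Of 13 genes for sterol efflux, LXR targets and esterification, 8 were tested in the double KO, with a median log2 fold change of 0.14. *Nceh1*, a cholesteryl ester hydrolase, was at 2.1, 1.6 and 2.1 in the control, at 5.1, 3.9 and 4.3 in the compound KO and at 4.4, 3.2 and 3.3 in the double KO. Its log2 fold changes were 0.89 ± 0.16 (SE, adjusted p of 0.415) and 0.65 ± 0.15 (adjusted p of 0.257). *Mylip* also lay above the control in the double KO (0.45 ± 0.15), and the exporter *Abca1* (-0.47 ± 0.14) and the sterol-binding *Osbp* (-0.20 ± 0.05) lay below it. Thus 2 of 8 lay above without overlap, as 7.78% of all entries did, and 2 below, as 1135 of 14122 did. *Mylip*, *Abca1* and *Osbp* are named after their values were seen. *Apoe* was at 10.8, 9.4 and 8.6 in the control and at 37.4, 19.1 and 18.0 in the compound KO, 1.21 ± 0.30 with an adjusted p of 0.481. Macrophage markers (9 of 10 in the table, 6 above the control, as 12.2% of all entries were) summed to 14.3 to 18.4 in the control and 31.4 to 38.7 in the compound KO. The sums of mesenchyme, neural retina and skeletal muscle markers likewise lay above the control in every compound KO library. The lens epithelium sum lay below it, at 581.3 to 613.0 against 638.3 to 690.7, with 3 of 8 markers below and 2 above. Of 14 fiber cell markers, 8 lay below the control without overlap and 0 above, as 1681 of 14348 entries lay below. The part of these cell types in the difference of *Apoe* was not tested. The list's median was 0.33 in the compound KO (10 tested) and -0.24 between the knockouts (9 tested), and without compound KO replicate 1 it was 0.25 and -0.19 (9 tested in each).

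Of 13 genes of other isoprenoid branches, 12 were tested, with median log2 fold changes of 0.05, 0.02 and -0.02 in double KO against control, compound KO against control and double KO against compound KO. Without compound KO replicate 1 the last 2 were 0.12 and -0.07. *Ggps1*, which makes the geranylgeranyl donor from the product of FDPS, was at 17.1, 16.9 and 13.4 in the control, at 21.5, 16.7 and 22.4 in the compound KO and at 14.4, 10.9 and 9.5 in the double KO. It lay lower in the double KO than in the compound KO by -0.76 ± 0.19 (SE, adjusted p of 0.665).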
